A study of Homo sapiens with 5 samples.

Results

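The genes described here are those of the cellular response to low oxygen and of glycolysis, 43 in all, chosen by gene name and known role. Earlier results of these data were known when the choice was made. The genes were measured in D54, an established human glioma cell line, in which TIP-1 was silenced. TIP-1, encoded by TAX1BP3, is little more than a single PDZ domain, a fold that grips the carboxyl ends of partner proteins. On Affymetrix whole-transcript arrays, 39 of the 43 genes had a row annotated to that gene symbol alone, out of 18417 genes with such a row and 33297 rows in all. The other 4, namely CA9, PGAM1, SLC16A1 and SLC16A3, were not analysed here. The 39 were grouped as 3 subunits of the hypoxia-inducible factors (HIF), 22 hypoxia-regulated genes and 14 core glycolysis genes. Hexokinases were not part of the set.

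The control group was 2 arrays of D54 cells transfected with a control shRNA, from independent clones. The other group was 3 arrays of D54 cells transfected with TIP-1 shRNA, each with a different shRNA sequence. All cells were trypsinised, seeded in DMEM/F12 medium and grown overnight before RNA was taken. The labels name no oxygen level and no hypoxic treatment in either group. With 1 array per clone or shRNA, the p-values below reflect how far clones and shRNA sequences varied.

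HIF is a pair of proteins, an oxygen-regulated alpha subunit (HIF1A or EPAS1) and the constant partner ARNT. When oxygen is present, prolyl hydroxylases of the EGLN family mark the alpha subunit, VHL binds it, and it is destroyed. When oxygen falls, the alpha subunit accumulates, pairs with ARNT and switches on genes through a short DNA element with the core ACGTG or GCGTG. Its targets bring in glucose, raise glycolysis, export acid, turn away pyruvate from mitochondria and attract blood vessels. Because the alpha subunits are controlled mainly as proteins, their transcripts do not report HIF activity. In glioma this programme is known for its activity around necrosis.

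The promoters of 7 members are shown, picked after their values were seen. SLC2A1, CA12 and EGLN3 were the members that differed most clearly between the groups, and BNIP3, ANKRD37, ALDOC and PGK1 are members whose promoter letters hold ACGTG. Each line gives the 250 bases upstream of the start site that RefSeq lists for the gene in GRCh38.p14, 5′ to 3′ on the gene's strand. Capitals mark ACGTG, the related GCGTG and their reverse complements, and the palindrome CACGTG reads as the former on both strands.
SLC2A1 (chr1:42958869-42959118, minus strand): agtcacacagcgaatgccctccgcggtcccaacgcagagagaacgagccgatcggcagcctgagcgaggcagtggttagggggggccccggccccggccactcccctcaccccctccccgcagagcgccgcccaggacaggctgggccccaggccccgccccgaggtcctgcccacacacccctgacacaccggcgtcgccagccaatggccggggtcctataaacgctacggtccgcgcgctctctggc
CA12 (chr15:63381847-63382096, minus strand): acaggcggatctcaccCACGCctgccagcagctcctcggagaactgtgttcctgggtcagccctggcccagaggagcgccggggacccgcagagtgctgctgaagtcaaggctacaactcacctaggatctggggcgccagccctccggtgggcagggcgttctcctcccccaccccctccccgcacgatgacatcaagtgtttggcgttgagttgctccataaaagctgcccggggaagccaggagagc
EGLN3 (chr14:33951075-33951324, minus strand): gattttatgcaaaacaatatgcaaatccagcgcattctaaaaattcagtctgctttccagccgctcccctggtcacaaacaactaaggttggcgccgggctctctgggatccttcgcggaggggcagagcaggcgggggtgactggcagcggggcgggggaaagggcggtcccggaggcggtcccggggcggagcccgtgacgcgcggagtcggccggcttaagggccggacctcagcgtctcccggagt
BNIP3 (chr10:131981924-131982173, minus strand): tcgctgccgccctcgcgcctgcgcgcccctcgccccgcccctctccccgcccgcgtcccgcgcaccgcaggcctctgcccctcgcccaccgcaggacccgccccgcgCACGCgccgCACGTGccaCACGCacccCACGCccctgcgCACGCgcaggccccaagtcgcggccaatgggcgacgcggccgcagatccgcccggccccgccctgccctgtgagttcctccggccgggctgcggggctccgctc
ANKRD37 (chr4:185396591-185396840, plus strand): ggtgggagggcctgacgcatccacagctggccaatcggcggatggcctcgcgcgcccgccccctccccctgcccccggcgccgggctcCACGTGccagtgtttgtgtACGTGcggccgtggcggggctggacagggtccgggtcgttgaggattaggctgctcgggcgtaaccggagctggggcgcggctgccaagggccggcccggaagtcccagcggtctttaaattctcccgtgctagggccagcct
ALDOC (chr17:28576896-28577145, minus strand): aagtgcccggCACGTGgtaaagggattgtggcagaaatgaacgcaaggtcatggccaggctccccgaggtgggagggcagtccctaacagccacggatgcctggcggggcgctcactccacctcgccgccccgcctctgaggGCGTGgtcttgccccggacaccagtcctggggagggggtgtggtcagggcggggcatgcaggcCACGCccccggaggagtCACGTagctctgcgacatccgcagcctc
PGK1 (chrX:78103998-78104247, plus strand): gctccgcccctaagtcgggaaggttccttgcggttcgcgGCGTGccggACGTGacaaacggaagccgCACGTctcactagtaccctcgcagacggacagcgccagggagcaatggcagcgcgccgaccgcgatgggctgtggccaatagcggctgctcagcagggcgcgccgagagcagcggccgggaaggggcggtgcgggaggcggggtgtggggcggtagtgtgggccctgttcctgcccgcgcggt

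Neither ACGTG nor GCGTG occurred in the windows of SLC2A1 and EGLN3, and the CA12 window held GCGTG 1 time and ACGTG 0 times. The ANKRD37 window held ACGTG 3 times, counting both strands, and the ALDOC window held ACGTG 3 times and GCGTG 2 times. The BNIP3 window held ACGTG 2 times and GCGTG 4 times, and the PGK1 window held ACGTG 2 times and GCGTG 1 time. The set of RefSeq windows used here held 51 for 34 of the measured members, since several genes have more than 1 start. It held none for VEGFA, BNIP3L, NDRG1, SLC2A3 and STC1, all hypoxia-regulated. It thus covered 17 of 22 hypoxia-regulated members and all 14 core glycolysis members, so the subset shares below rest on unequal coverage. ACGTG was in 21 of the 51 windows (41.2%), against 20.3% of the 20109 windows held for all measured genes and 18.5% of all 34943 windows. By subset it was in 9 of 20 windows of hypoxia-regulated members and 12 of 27 windows of core glycolysis members. GCGTG was in 19 of the 51 windows (37.3%), close to the 38.5% of windows of all measured genes. By subset it was in 10 of 20 windows (50%) of hypoxia-regulated members and 7 of 27 (25.9%) of core glycolysis members. These are matches of letters in 1 short window and say nothing of binding.

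The silenced gene was lower in every TIP-1 shRNA array. The row of TAX1BP3, which also carries the read-through transcript P2RX5-TAX1BP3, gave log2 signals of 12.05 and 12.10 in control clones 1 and 2, against 9.81, 9.61 and 9.55 for shRNAs 1, 2 and 3. The difference of -2.42 was the 1 of 33297 rows that passed the test (limma adjusted p = 0.011), a 5.35-fold reduction. Without control 1, control 2 or shRNA 2 that call was lost (adjusted p = 0.386, 0.387 and 0.129). Array medians lay between 7.88 and 7.98 and correlations between arrays across rows between 0.991 and 0.997. Of the glioma and progenitor markers checked, VIM (13.98 ± 0.05 (SD, n = 2) and 13.93 ± 0.09 (SD, n = 3)), CD44 (13.76 ± 0.05 (SD, n = 2) and 13.80 ± 0.00 (SD, n = 3)) and EGFR (11.26 ± 0.05 (SD, n = 2) and 11.13 ± 0.03 (SD, n = 3)) were bright. GFAP, NES, OLIG2, SOX2, S100B and FABP7 had control means from 6.26 to 8.09, near or below the array medians, so the glioma label is borne by VIM, CD44 and EGFR, which other cells also express. All 5 endothelial and all 3 epithelial markers lay below every array median, as did 3 of 5 macrophage, 3 of 4 neuronal and 2 of 4 fibroblast markers, and none of the 30 markers passed the test.

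As a set, the members had no shared direction. None of the 39 passed the test over all rows (limma, adjusted p under 0.05; smallest adjusted p 0.707), and 0.00% of the 18417 genes did. Over all rows, TAX1BP3 alone made 0.00300%. At an unadjusted p under 0.05 there were 3 members, 1 higher and 2 lower with TIP-1 shRNA, against 6.02% of all genes (3.08% higher and 2.94% lower). In 7 of the 39 members the 3 TIP-1 shRNA arrays all lay on 1 side of both controls, 3 above and 4 below. That share, 17.9%, was under the 26.5% of all genes that met the same rule (12.5% above and 14.1% below). Differences are TIP-1 shRNA minus control in log2 units. Of the members, 16 had a difference above 0 and 23 below 0 (47.6% and 52.4% of all genes), with a median of -0.02, against -0.01 over all genes.

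Hypoxia-regulated genes and core glycolysis genes had nearly the same median difference, -0.02 over 22 genes and -0.03 over 14. They differed in how widely single genes scattered. Hypoxia-regulated members ran from -0.56 (CA12) to 0.41 (SLC2A1), and core glycolysis members from -0.09 (ENO1) to 0.24 (ENO2). The median range across the 5 arrays was 0.52 log2 units for a hypoxia-regulated gene and 0.17 for a core glycolysis gene, against 0.29 over all genes. Core glycolysis rows were also brighter, with a median control level of 13.04 against 10.00 for hypoxia-regulated genes and 8.53 for all genes, and the part of brightness in the narrow range was not tested. The difference between the subsets carries no test.

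**Figure D1:**
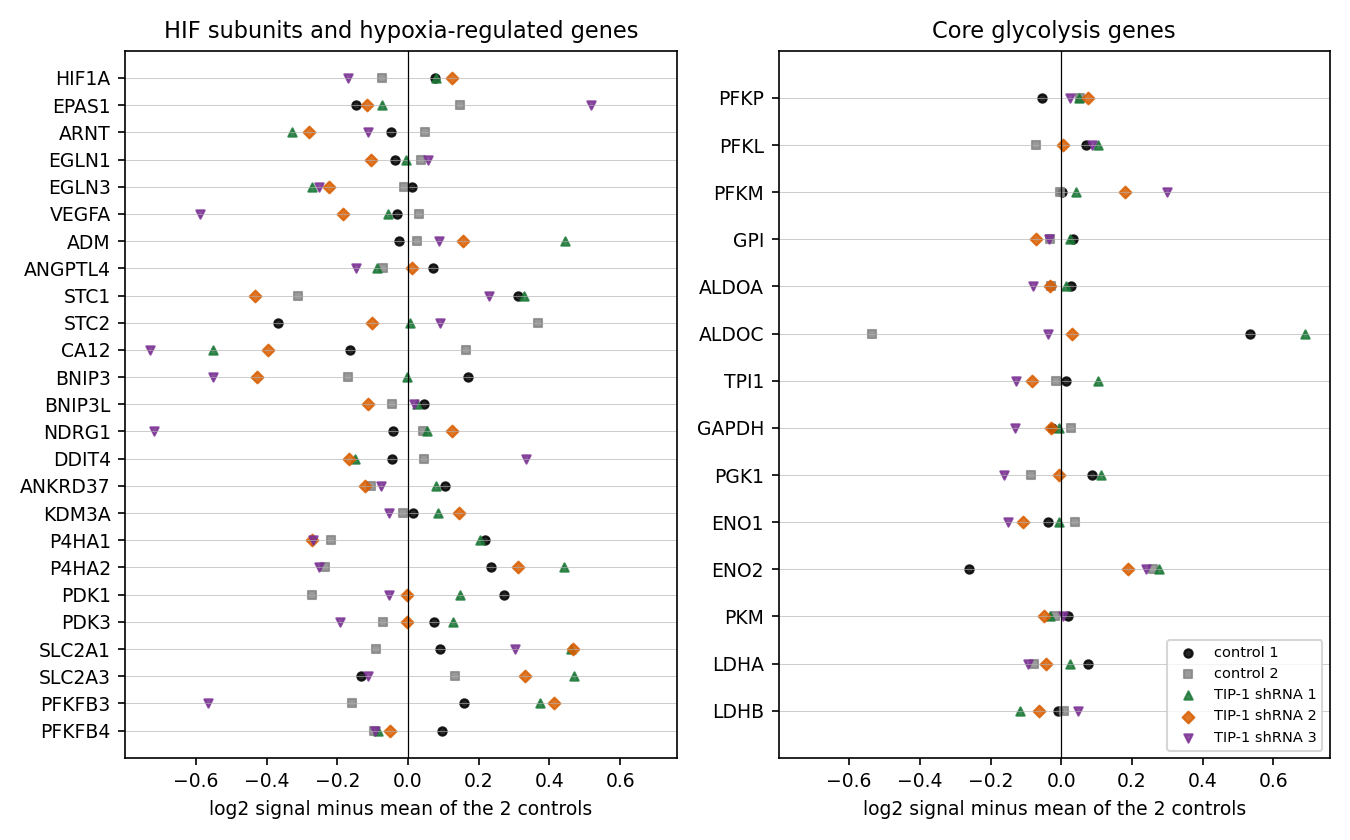
Log2 signal of each measured member in each of the 5 arrays, minus the mean of the 2 controls, with HIF subunits and hypoxia-regulated genes at left and core glycolysis genes at right. Core glycolysis genes other than ALDOC, ENO2 and PFKM lie close to the line, while hypoxia-regulated genes scatter on both sides, in the controls as well.

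HIF subunits came first, since they carry the response. HIF1A, the oxygen-regulated subunit found in most cells, read 13.39 and 13.24 in control clones 1 and 2, against 13.39, 13.43 and 13.14 for shRNAs 1, 2 and 3. The groups overlapped, and the difference was 0.01 (95% interval -0.28 to 0.30). EPAS1, the related subunit HIF-2 alpha, read 9.75 and 10.04 in the 2 control clones, against 9.82, 9.78 and 10.41 in the TIP-1 shRNA arrays. Only the shRNA 3 array lay above both controls, and the difference of 0.11 had an interval of -0.41 to 0.63.

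ARNT, the constant partner, was the 1 subunit with separated groups. It read 10.67 and 10.77 in the 2 control clones, against 10.39, 10.44 and 10.61 in the TIP-1 shRNA arrays, so shRNAs 1 and 2 lay lowest and shRNA 3 just under control 1. The difference was -0.24 (SE 0.10, 95% interval -0.48 to 0.00, limma adjusted p = 0.707). None of the 3 subunits passed the test.

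Of the oxygen sensors, EGLN3 lay lower in all 3 TIP-1 shRNA arrays and EGLN1 did not. EGLN3, a prolyl hydroxylase that is itself a HIF target, read 9.06 and 9.04 in the 2 control clones, against 8.78, 8.83 and 8.80 in the TIP-1 shRNA arrays. Of the members with separated groups it had the smallest SD over the TIP-1 shRNA arrays, with means of 9.05 ± 0.01 (SD, n = 2) and 8.80 ± 0.02 (SD, n = 3). The difference was -0.25 (95% interval -0.44 to -0.06, adjusted p = 0.707), a 1.19-fold reduction that missed the threshold. EGLN1, the main hydroxylase of HIF in normal oxygen, had a difference of -0.02 (-0.24 to 0.20).

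The single genes CA12 and SLC2A1 had the largest differences of the set, in opposite directions. CA12, a membrane carbonic anhydrase that helps set pH at the cell surface, read 9.32 and 9.65 in control clones 1 and 2, against 8.94, 9.09 and 8.76 for shRNAs 1, 2 and 3. All 3 TIP-1 shRNA arrays lay below both controls, although the controls differed by 0.33 between themselves. The difference was -0.56 (SE 0.14, 95% interval -0.91 to -0.21, adjusted p = 0.707), or 1.47-fold. CA9, the better known HIF target of this family, was not analysed here.

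SLC2A1, the glucose transporter GLUT1, lay higher in all 3 TIP-1 shRNA arrays. It read 11.92 and 11.74 in the 2 control clones, against 12.29, 12.29 and 12.13 in the TIP-1 shRNA arrays, so shRNAs 1 and 2 coincided and shRNA 3 lay a little lower. The difference was 0.41 (SE 0.10, 95% interval 0.16 to 0.66, adjusted p = 0.707), 1.33-fold higher. SLC2A3, the neuronal-type transporter GLUT3, was high in shRNAs 1 and 2 but not in shRNA 3, with 10.09 and 10.36 in the 2 control clones, against 10.70, 10.56 and 10.11 in the TIP-1 shRNA arrays (difference 0.23, interval -0.23 to 0.69). SLC2A1, CA12 and EGLN3 are the members with an unadjusted p under 0.05. None of the 3 has ACGTG in the promoter window printed above, which leaves start sites and elements outside that window unread. Most windows lack it, since ACGTG was in 20.3% of the windows of all measured genes. The other printed promoters were picked because they hold ACGTG, so the contrast with them follows from the choice.

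**Figure D2:**
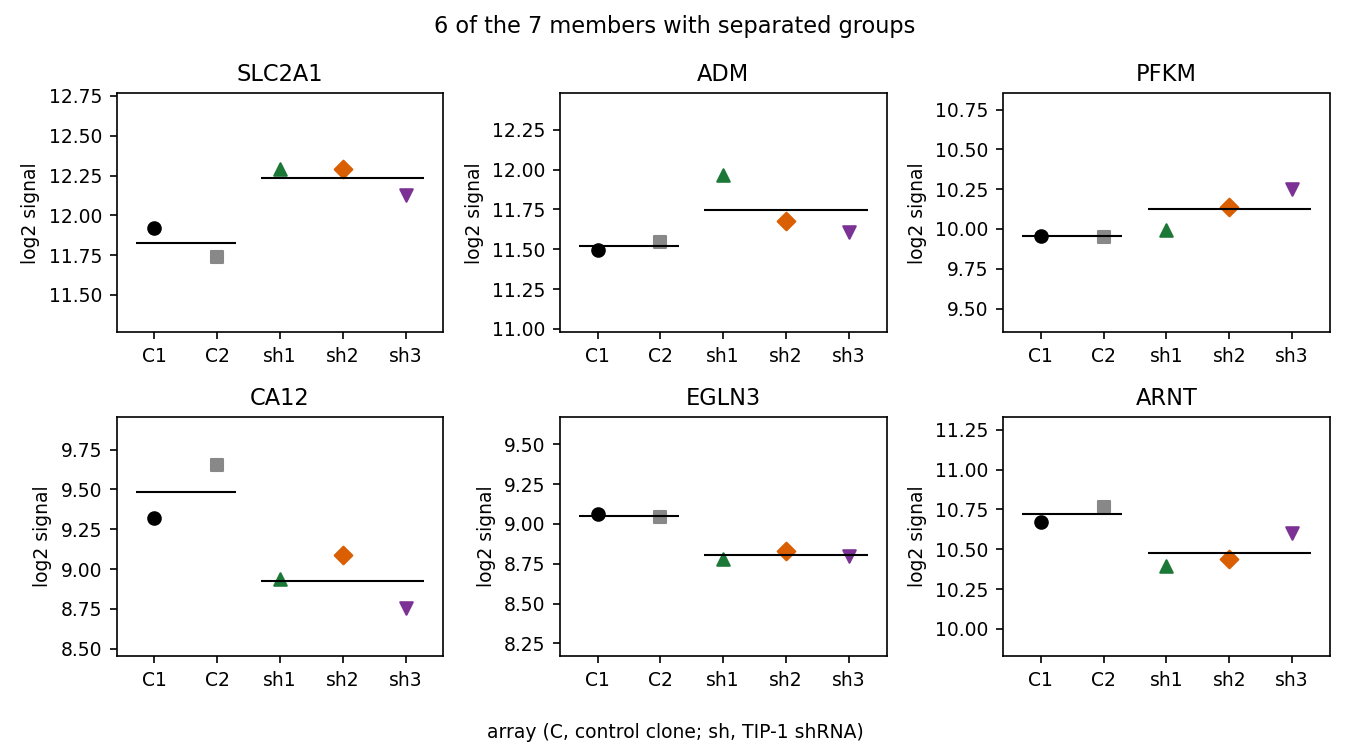
Log2 signal of 6 members in each array, with group means as lines; each panel spans 1.5 log2 units. SLC2A1, ADM and PFKM have all 3 TIP-1 shRNA arrays above both controls, and CA12, EGLN3 and ARNT have all 3 below.

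Secreted signals did not share a direction. VEGFA, the main growth factor for blood vessels, read 9.83 and 9.89 in the 2 control clones, against 9.80, 9.68 and 9.27 in the TIP-1 shRNA arrays, below both controls in each array but by a clear margin in shRNA 3 alone (difference -0.28, interval -0.68 to 0.12). ADM, the vasodilator peptide adrenomedullin, read 11.49 and 11.54, against 11.96, 11.67 and 11.61, above both controls in each array, with shRNA 1 the highest (difference 0.23, interval -0.08 to 0.54). ANGPTL4, a lipase inhibitor, had a difference of -0.07, within the overlap of the groups.

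The stanniocalcins STC1 and STC2, secreted glycoproteins with roles in mineral balance and stress, varied more between the 2 control clones than between the groups. STC1 read 10.46 and 9.83 in the 2 control clones, against 10.47, 9.71 and 10.37 in the TIP-1 shRNA arrays, where control 2 and shRNA 2 were low. STC2 read 7.42 and 8.16, against 7.79, 7.69 and 7.88, with all 3 TIP-1 shRNA arrays between the controls. Their differences were 0.04 (-0.64 to 0.72) and -0.00 (-0.52 to 0.52).

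Among genes of mitophagy and stress, the largest difference was that of BNIP3, a mitochondrial receptor that directs mitochondria to degradation. BNIP3 read 12.24 and 11.90 in the 2 control clones, against 12.07, 11.64 and 11.52 in the TIP-1 shRNA arrays. shRNAs 2 and 3 lay below both controls and shRNA 1 between them (difference -0.33, SE 0.19, interval -0.79 to 0.14). Its relative BNIP3L differed by -0.02 (-0.24 to 0.19).

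NDRG1, a stress and differentiation gene, set shRNA 3 apart from the rest. It read 9.63 and 9.72 in the 2 control clones, against 9.73, 9.80 and 8.96 in the TIP-1 shRNA arrays, so 4 arrays lay together and shRNA 3 lay -0.72 from the control mean. DDIT4, an inhibitor of the growth kinase mTOR, was low in shRNAs 1 and 2 and high in shRNA 3, at 7.89, 7.88 and 8.38 against 8.00 and 8.09 in the controls. ANKRD37, a HIF target whose promoter is printed above, read 8.22 and 8.01 in the 2 control clones, against 8.19, 7.99 and 8.04 in the TIP-1 shRNA arrays (difference -0.04, interval -0.30 to 0.23).

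Chromatin and collagen enzymes did not separate the groups. KDM3A, a histone demethylase that removes a silencing mark, read 8.72 and 8.69 in the 2 control clones, against 8.79, 8.85 and 8.65 in the TIP-1 shRNA arrays, with shRNAs 1 and 2 a little above and shRNA 3 a little below (difference 0.06). P4HA2, a subunit of the collagen prolyl hydroxylase, read 11.61 and 11.14, against 11.81, 11.68 and 11.12, where shRNAs 1 and 2 were above both controls and shRNA 3 was at the level of control 2 (difference 0.17, interval -0.42 to 0.75). The partner gene P4HA1 differed by -0.11 (-0.59 to 0.37).

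Regulators of the entry into and exit from glycolysis were spread around zero. PDK1 and PDK3, kinases that shut off pyruvate dehydrogenase, differed by 0.03 (-0.38 to 0.44) and -0.02 (-0.31 to 0.27). PDK3 read 9.73 and 9.58 in the 2 control clones, against 9.78, 9.65 and 9.46 in the TIP-1 shRNA arrays, which overlap. PFKFB3, which makes the activator of phosphofructokinase, read 10.94 and 10.62 in the 2 control clones, against 11.15, 11.19 and 10.21 in the TIP-1 shRNA arrays, above both controls in shRNAs 1 and 2 and below both in shRNA 3. PFKFB4, its relative, read 8.29 and 8.10, against 8.11, 8.15 and 8.10, where control 1 was the highest array (difference -0.08, interval -0.30 to 0.15).

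Of the 14 core glycolysis enzymes, 5 had a difference above 0 and 9 below 0. Those above 0 were ENO2 (0.24), ALDOC (0.23), PFKM (0.17), PFKL and PFKP. Along the pathway from glucose phosphate to lactate, 8 of the enzymes below 0 were GPI -0.03, ALDOA -0.03, TPI1 -0.04, GAPDH -0.05, PGK1 -0.02, ENO1 -0.09, PKM -0.03 and LDHA -0.04. Centring each array on its own median raises every difference by 0.06, which turns the sign of all of these 8 but ENO1. These 8 lay above the upper quartiles, which were 9.77 and 9.77 in the controls, against 9.79, 9.80 and 9.83 for shRNAs 1, 2 and 3. The upper quartiles thus did not fall with the medians, and whether centring suits rows this bright was not tested. The narrowest interval of the 14 was that of PKM, the pyruvate kinase, at -0.22 to 0.17. LDHB, the lactate dehydrogenase chain that favours pyruvate, read 12.92 and 12.94 in the 2 control clones, against 12.81, 12.87 and 12.98 in the TIP-1 shRNA arrays (difference -0.04), and shRNA 3 was the highest array. TPI1 has a second, dimmer row, which gave -0.08.

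The phosphofructokinase chains, which form the committed step, all had differences above 0. PFKM, the muscle-type chain, was the 1 core gene with separated groups, at 9.96 and 9.95 in the 2 control clones, against 10.00, 10.13 and 10.25 in the TIP-1 shRNA arrays (difference 0.17, interval -0.07 to 0.42, limma adjusted p = 0.723). shRNA 1 lay barely above the controls and shRNA 3 highest. PFKP, the platelet-type chain, differed by 0.05 and PFKL, the liver-type chain, by 0.06, with overlapping groups.

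**Figure D3:**
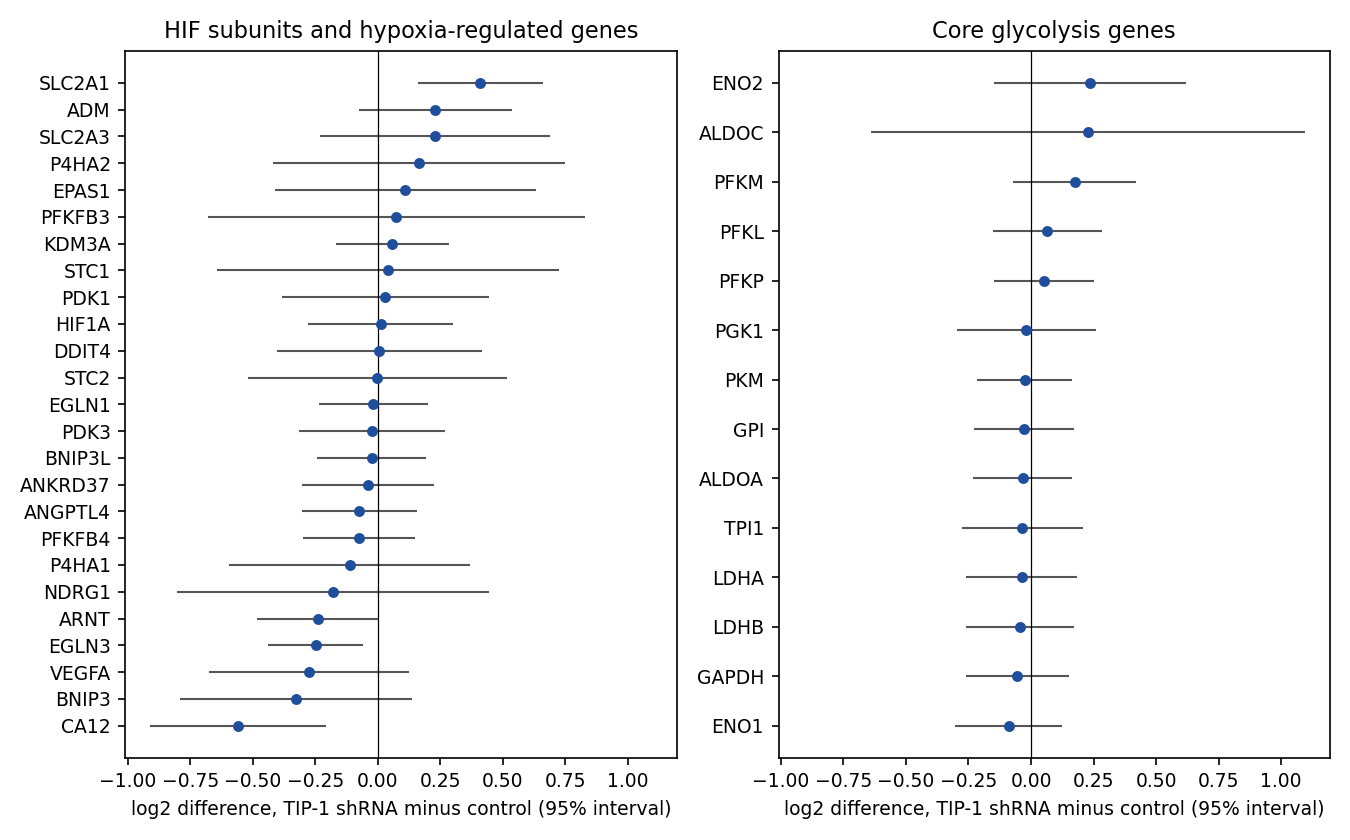
Log2 difference, TIP-1 shRNA minus control, of each measured member with limma's 95% interval, sorted within the 2 panels. The intervals of CA12, EGLN3 and SLC2A1 do not reach 0, and those of ALDOC, PFKFB3 and STC1 are the widest.

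For most members the 2 control clones differed more than the groups did. The median absolute difference over the members was 0.14 between the controls and 0.06 between the groups. Over all genes these medians were 0.11 and 0.09. The 2 measures are unlike, since a difference between 2 single arrays varies more than one between means of 3 and 2 arrays. The controls were at least 0.5 log2 units apart in 5 of 39 members (12.8%), against 3.21% of all genes. Those 5 were ALDOC, STC1, STC2, PDK1 and ENO2. ALDOC, the brain-type aldolase, read 10.69 and 9.62 in control clones 1 and 2, against 10.85, 10.19 and 10.12 for shRNAs 1, 2 and 3, so control 1 and shRNA 1 were high and control 2 was lowest. PDK1 read 10.73 and 10.19, against 10.61, 10.45 and 10.41, with the TIP-1 shRNA arrays between the controls. ENO2, the neuron-type enolase, read 10.12 and 10.64, against 10.66, 10.57 and 10.62, where control 1 alone was low.

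Control 1 read above control 2 in 14 of 22 hypoxia-regulated members and 9 of 14 core glycolysis members, against 42.5% of all genes. P4HA1, named here after its values were seen, read 11.03 and 10.59 in the 2 control clones, against 11.02, 10.54 and 10.54 in the TIP-1 shRNA arrays, so control 1 and shRNA 1 were level and the other 3 arrays were level with each other. BNIP3 and PGK1 also had control 1 and shRNA 1 as their 2 highest arrays, with PGK1 at 13.67 and 13.50, against 13.70, 13.58 and 13.42. These examples were picked after their values were seen. Members with these 2 arrays highest were not counted, nor was the share of all genes. SLC2A1, PFKFB3, STC2 and ENO2 had other arrays as their 2 highest. The difference of ALDOC was 0.23 with all arrays and -0.31 without control 2. That of PDK1 was 0.03 and -0.24 without control 2, and that of ENO2 0.24 and -0.03 without control 1.

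**Figure D4:**
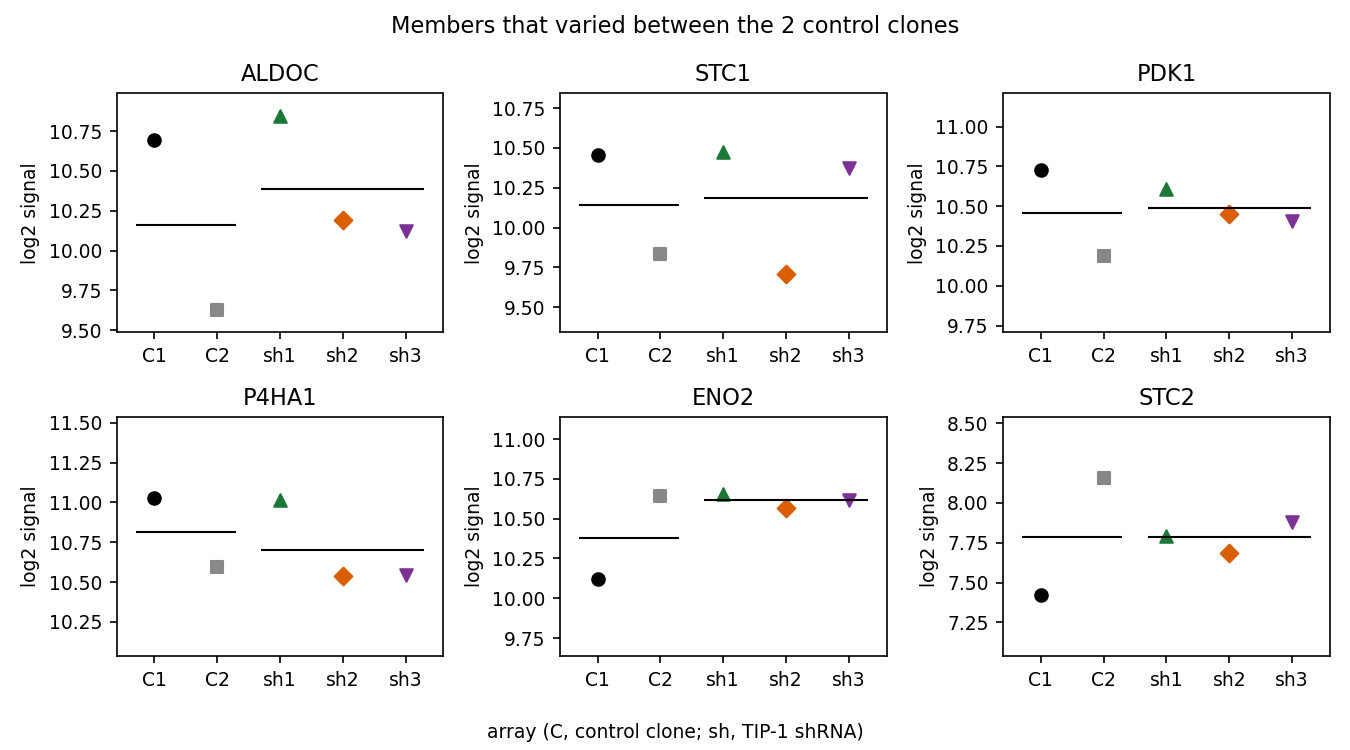
Log2 signal of 6 members in each array, with group means as lines; each panel spans 1.5 log2 units. In ALDOC, STC1, PDK1 and P4HA1 control 1 lies above control 2, in ENO2 and STC2 below it, and the controls bracket or nearly equal most of the TIP-1 shRNA arrays.

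The 3 shRNAs were then set side by side, each as 1 array against the same 2 controls, with no test. The median distance of the hypoxia-regulated members from the control mean was 0.07, -0.08 and -0.10 for the shRNAs in order, and the controls themselves stood at 0.06 and -0.06. For core glycolysis it was 0.03, -0.03 and -0.04 in shRNAs 1, 2 and 3, and 0.02 and -0.02 in the controls. The medians of all 18417 genes were 0.00, -0.01 and -0.02. In shRNA 1, 16 members lay above both controls and 8 below (32.2% and 31.2% of all genes). In shRNA 2 these were 10 and 18 (30.8% and 37.7%), and in shRNA 3 they were 8 and 20 (35.5% and 41.9%).

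shRNA 3 was the lowest of the 5 arrays for 16 of 39 members (41.0%), against 32.5% of all genes, and the highest for 5 (12.8%), against 27.1%. The lowest included the hypoxia-regulated genes NDRG1, VEGFA, PFKFB3, BNIP3 and CA12, and the highest included the HIF subunit EPAS1 and DDIT4. limma's array weights, which are low for an array that departs from its group across rows, were 0.405 for shRNA 3, against 1.12 and 2.79 for shRNAs 1 and 2 and 0.890 for each control. PFKFB3 stood at -0.57 and VEGFA at -0.59 from the control mean in shRNA 3, and EPAS1 at 0.52. Without shRNA 3, 7 members changed sign, each from a difference that was not called: NDRG1 (to 0.09), EPAS1 (-0.09), DDIT4 (-0.16), STC1 (-0.05), PDK3 (0.06), TPI1 (0.01) and PGK1 (0.05). In that setting 6 members instead of 3 had an unadjusted p under 0.05. The share of all genes was not counted for either rule, so neither the sign changes nor the rise is a result about the members.

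The wider pathway was read from a further list of HIF regulators, other HIF targets, glycolysis isoforms, pyruvate entry, glycogen, pentose phosphate and gluconeogenesis genes. This list too was chosen with earlier results of these data known, so its shares beside those of all genes carry no test. Of 99 listed genes, 92 had a row of their own. None passed the test, and 10 had an unadjusted p under 0.05, 4 higher and 6 lower (3.08% and 2.94% of all genes). Their median difference was 0.00. Groups were separated in 23 of 92 genes (25%), against 26.5% of all genes.

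Of 10 regulators of HIF measured outside the set, 6 had a difference above 0 and 4 below, and VHL and ARNT2 had an unadjusted p under 0.05 (20%, against 6.02% of all genes). VHL, which marks HIF alpha subunits for destruction, read 9.13 and 9.16 in the 2 control clones, against 9.35, 9.34 and 9.57 in the TIP-1 shRNA arrays (difference 0.27, interval 0.03 to 0.52). ARNT2, a relative of ARNT that is abundant in brain, read 8.42 and 8.24, against 8.86, 8.63 and 9.04 (difference 0.51, interval 0.17 to 0.85). For both, every TIP-1 shRNA array lay above both controls, opposite to ARNT itself. The same held for CITED2, which competes with HIF alpha subunits for a coactivator, at 12.54 and 12.60, against 12.89, 12.68 and 13.14 (difference 0.33, interval -0.02 to 0.69). HIF1AN, the hydroxylase that blocks coactivator binding, differed by 0.27 (-0.11 to 0.65) with overlapping groups. HIF3A, another alpha subunit, lay below both controls in every TIP-1 shRNA array (difference -0.19, interval -0.41 to 0.03). CITED2, HIF1AN and HIF3A are named here after their values were seen.

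Of 29 other HIF targets measured, 14 had a difference above 0 and 15 below. At an unadjusted p under 0.05 there were 5, all on the lower side (17.2%, against 2.94% of all genes on that side). Groups were separated in 9, of which 6 lay below and 3 above (20.7% and 10.3%, against 14.1% and 12.5% of all genes). The 3 above were INSIG2 (0.18), JMJD6 (0.17) and LIMD1 (0.13), none with an unadjusted p under 0.05. LOX, which crosslinks collagen and elastin, read 13.71 and 13.40 in the 2 control clones, against 13.27, 12.91 and 13.04 in the TIP-1 shRNA arrays (difference -0.48, interval -0.83 to -0.12). TFRC, the transferrin receptor for iron uptake, read 12.24 and 12.20, against 11.92, 11.53 and 11.88 (difference -0.45, interval -0.78 to -0.12). BHLHE41, a repressor linked to the circadian clock, read 8.69 and 8.78, against 8.00, 8.17 and 8.63, close to the controls in shRNA 3 (difference -0.47). AK4, a mitochondrial adenylate kinase, differed by -0.27, and TMEM45A, a membrane protein whose signal lay below every array median, by -0.26. The median over the 29 targets was -0.01.

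IGFBP3 and PLOD2 had large differences that were widest in shRNA 3 and shrank without it. IGFBP3, a binding protein for insulin-like growth factors, read 12.09 and 12.05 in the 2 control clones, against 11.80, 11.33 and 10.24 in the TIP-1 shRNA arrays, and its difference of -0.95 was -0.51 without shRNA 3. PLOD2, a lysyl hydroxylase of collagen, read 12.19 and 11.55, against 11.74, 11.29 and 10.34, and its difference of -0.75 was -0.36 without shRNA 3. Neither reached an unadjusted p under 0.05.

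In carbohydrate metabolism outside the core, PFKFB2 and PPP1R3C lay on the higher side. PFKFB2, the heart-type regulator of phosphofructokinase, read 7.89 and 7.72 in the 2 control clones, against 8.23, 8.35 and 8.60 in the TIP-1 shRNA arrays (difference 0.59, interval 0.26 to 0.91, adjusted p = 0.707). PPP1R3C, which targets a phosphatase to glycogen, read 9.48 and 9.47, against 9.86, 9.69 and 10.39, highest in shRNA 3 (difference 0.50, interval 0.01 to 1.00). G6PC1, the glucose-6-phosphatase of liver, differed by -0.22 at a signal below every array median. Lower quartiles of all rows were 6.45 and 6.44 for the control arrays, against 6.42, 6.40 and 6.35 for the TIP-1 shRNA arrays. Any part of this smaller shift in the difference of G6PC1 was not tested.

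**Figure D5:**
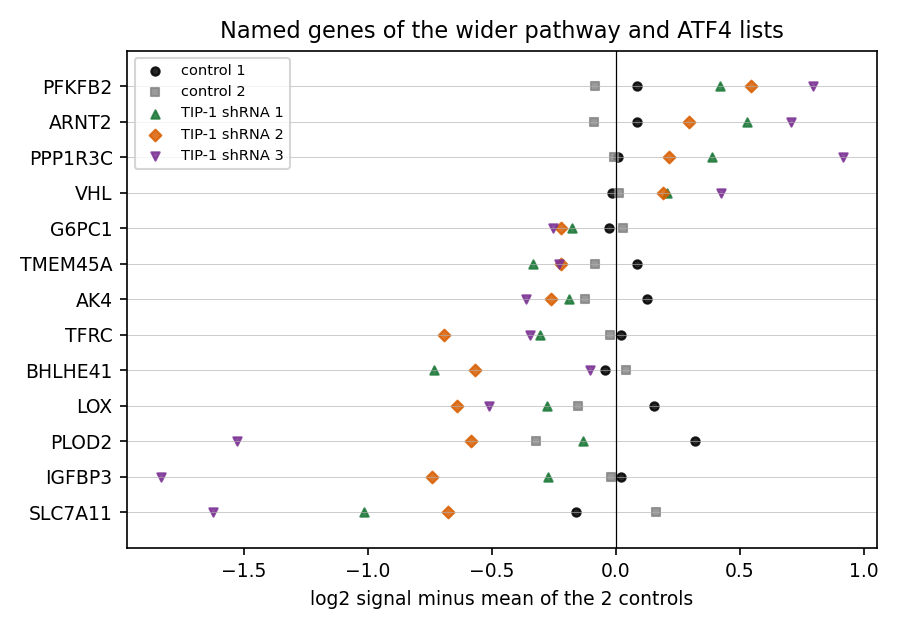
Log2 signal minus the mean of the 2 controls for the named genes of the wider pathway list and for SLC7A11, in each array. PFKFB2, ARNT2, PPP1R3C and VHL have all TIP-1 shRNA arrays to the right of both controls, and the others but PLOD2 have them all to the left. shRNA 3 stands farthest from the control mean in 9 of the 13 genes, all but LOX, TFRC, BHLHE41 and TMEM45A. The share of all genes with shRNA 3 farthest was not counted. The 13 were picked by p or size of difference, so this count is not a result about them.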

How the data were processed

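RNA of 5 D54 samples was measured on 1 array each. The deposited values are log2 signals per transcript cluster, which the authors processed with the Affymetrix Exon Array Computational Tool, per the series' design text. How the tool treated background and scaling, and its version, stay unknown because they were not given in the sources used here. Values were used as deposited, because array quantiles nearly coincided. Row symbols came from the platform annotation, updated by gene identifier in a GRCh38.p14 gene table. Where a gene had several single-symbol rows, the row with the highest mean over the 5 arrays was used.

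The 3 TIP-1 shRNA arrays were compared with the 2 controls by limma 3.58.1 run under R 4.3.3 (two-sided tests from lmFit and eBayes), Benjamini-Hochberg adjusted over all 33297 rows, threshold 0.05. An exact permutation test of 2 against 3 arrays cannot go below p = 0.1, so none was used. The fit was run on simulated data with 200 changed rows, drawn from limma's own model. That run checked the code and not how well the model describes clones and shRNA sequences. Members and lists were chosen with earlier results of these data known. Values by array are given for HIF subunits, for members with an unadjusted p under 0.05, a difference of at least 0.3 or controls at least 0.5 apart, for the member with the smallest p in each role, and for listed genes outside the set with an unadjusted p under 0.05 or a difference of at least 0.5. Further members are shown to complete their role. The replicate numbers gave correlations of deviations of 0.05 and -0.05, so the numbers were not read as pairing. Having 5 arrays limits the precision. The table has no detection calls. The alternatives tried were quantile normalization, median centring, bright rows only, a trended robust prior, array weights, a replicate block, the mean of rows per gene and leaving out each array.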

Additional observations from a re-analysis of the deposited data

How the results depend on the processing

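No member passed the threshold with all arrays or under any of the 12 alternatives, the replicate block included, where 0 of 39 members passed (smallest adjusted p 0.340) and 7 instead of 3 had an unadjusted p under 0.05. TAX1BP3 was lower in every alternative, at -2.50 to -2.37 when 1 array was left out, and was not called without control 1 (-2.45), control 2 (-2.39) or shRNA 2 (-2.39). With median centring the median of the core glycolysis members was 0.035, against -0.03 as deposited, and that of the hypoxia-regulated members 0.041, against -0.02. Leaving out 1 array gave medians of -0.12 to 0.035 for the hypoxia-regulated members and -0.05 to 0.00075 for core glycolysis, and 9 to 23 members with separated groups, more than 7 as fewer arrays must then be on 1 side. No single gene named by the rule was called with all arrays, so none had a call to lose. Of the values of these genes under the alternatives, 360 kept direction and stayed uncalled, and 33 changed sign. With quantile normalization these were STC2 (0.064) and PDK1 (-0.0085). With median centring they were STC2 (0.059), LDHB (0.017) and PDK3 (0.038). With array weights they were EPAS1 (-0.045), STC1 (-0.17), NDRG1 (0.026) and PDK3 (0.013). With the replicate block, which leaves shRNA 3 without a partner, they were EPAS1 (-0.095), STC1 (-0.052), NDRG1 (0.088) and PDK3 (0.062). Leaving out 1 array gave a range of -0.0641 to 0.10 for HIF1A, -0.0947 to 0.26 for EPAS1, -0.27 to 0.35 for STC1, -0.37 to 0.37 for STC2, -0.24 to 0.30 for PDK1, -0.0984 to 0.0623 for PDK3, -0.31 to 0.76 for ALDOC, -0.0252 to 0.50 for ENO2, -0.0686 to 0.40 for P4HA2, -0.33 to 0.0884 for NDRG1 and -0.17 to 0.0196 for PFKFB4. SLC2A1 stayed at 0.32 to 0.50, CA12 at -0.72 to -0.39 and EGLN3 at -0.26 to -0.24. The cause of these changes was not tested. Shares of all genes under the alternatives were not counted, so the member counts given for them have no background to be read against. When 1 control is left out, the other is taken to vary as the TIP-1 shRNA arrays do.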

Other observations

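VEGFA, DDIT4 and STC2 are also known as targets of ATF4, the transcription factor of the amino acid and endoplasmic reticulum stress response, so 18 genes of that response were read beside them. None passed the test (limma, adjusted p under 0.05), and 1 had an unadjusted p under 0.05, against 6.02% of all genes. That gene was SLC7A11, the cystine and glutamate exchanger, which read 9.91 and 10.23 in the 2 control clones, against 9.05, 9.39 and 8.44 in the TIP-1 shRNA arrays (difference -1.11, 95% interval -1.77 to -0.44, limma adjusted p = 0.707). The median of the 18 genes was -0.02. ATF4 itself differed by -0.14 (-0.39 to 0.11), the chaperone HSPA5 by -0.20 (-0.43 to 0.04), the asparagine synthetase ASNS by 0.24 (-0.10 to 0.57) and the serine synthesis enzyme PSPH by 0.41 (-0.03 to 0.86).

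Genes that control the entry of pyruvate into mitochondria were read by array, a subset picked after its values were seen. In shRNA 3, 8 of the 12 measured genes lay above both controls, against 35.5% of all genes, and in shRNAs 1 and 2 these were 3 and 4 (32.2% and 30.8%). The 8 were PDHB, PDHX, DLD, PDP1, MPC2, PC and the kinases PDK2 and PDK4. They mix opposing roles, since such kinases shut off pyruvate dehydrogenase and PDP1 reactivates it. PDHA1 and MPC1 were the 2 genes below both controls in shRNA 3 (16.7%, against 41.9% of all genes). PDHA1, a catalytic chain of pyruvate dehydrogenase, read 10.60 and 10.70 in control clones 1 and 2, against 10.64, 10.77 and 9.80 for shRNAs 1, 2 and 3, so it was low in shRNA 3 alone. MPC1, a subunit of the mitochondrial pyruvate carrier, read 10.14 and 9.93, against 10.62, 10.81 and 9.62, above both controls in shRNAs 1 and 2 and below both in shRNA 3. PDP1, the phosphatase that reactivates pyruvate dehydrogenase, read 11.40 and 11.67, against 11.32, 11.11 and 11.93, with shRNA 3 the highest array. With 1 array per shRNA there is no test.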
